A study of Bos taurus with 27 samples.

Results

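The comparison described here sets lymph nodes of Brahman cattle that carried feeding adult ticks against nodes of Brahman cattle at baseline, when no tick was attached. Its arrays were taken by their labels, 3 adult and 3 baseline arrays, 6 of the 27 arrays of the series. Brahman is a zebu breed, the tick is Rhipicephalus microplus, the cattle tick, and the organ is the superficial cervical node, which receives lymph from the skin of the neck and shoulder. The other 21 arrays are Brahman nodes under feeding larvae and the same 3 stages in Bonsmara, a South African composite breed, and in Holstein-Friesian, a taurine dairy breed, with 3 arrays in each group. All of them entered the fit that estimates the spread. Sample RNA carried the dye Cy5 and was hybridised with a Cy3-labelled pool of cattle superficial cervical nodes, so each value is a ratio of 1 node to that pool. The replicates are called biological in the labels, which do not say whether the stages were biopsied from the same animals, nor give an age. No arrays of untreated animals at the later times were analysed here, so time since baseline cannot be told apart from adult tick feeding.

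A draining lymph node is built on a scaffold of reticular fibroblasts, their collagen fibres, blood and lymphatic vessels and the basement membranes that wrap them. Lymphocytes enter through specialised venules, meet antigen carried from the skin and divide, and B cells that switch class can make immunoglobulin E, the antibody that arms mast cells and basophils. Interferons, when present, switch on a broad set of antiviral genes in most cell types at the same time, and interferon gamma also induces chemokines that draw activated T cells.

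Probes of 1 gene were averaged, which gave 14495 named genes, and with the unnamed probes 28927 features were tested with limma. No feature reached an adjusted p under 0.05 in the adult against baseline comparison (0 of 28927, 0%). At an unadjusted p under 0.05 there were 3360 features, 11.6% of those tested, with 1391 higher and 1969 lower in adult arrays. Single arrays decided whether features passed, since 8, 2 and 1 did so without adult replicates 1, 2 and 3, against 98, 13 and 128 without baseline replicates 1, 2 and 3. All differences below are therefore values, each with its standard error (SE) from limma, and none is a call. Among named genes 770 (5.31%) had an unadjusted p under 0.05 and a higher mean in adult nodes, and 929 (6.41%) had one and a lower mean. With 1 array left out the share of higher genes was 6.81%, 4.86% and 2.5% without adult replicates 1, 2 and 3, against 4.9%, 4.57% and 5.15% without baseline replicates 1, 2 and 3. The share of lower genes was 6.6%, 4.82% and 3.86% without those adult arrays, against 7.17%, 5.31% and 9.71% without those baseline arrays. Counts of list members, with all arrays or with 1 left out, are to be read against these shares. The 3 adult arrays lay wholly above the 3 baseline arrays in 981 genes (6.77%) and wholly below them in 978 (6.75%). Counts of members with groups apart are to be read against 6.77% and 6.75%. The median difference over all genes was -0.02 log2 units and the median SE was 0.15. Neither log base nor ratio direction is stated in the table. Base 2 and sample over pool are likely, from the dyes and from limma's convention. If the direction were the opposite, each sign below would turn.

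The arrays were unequal. Over all features the standard deviation of the log2 ratios was 0.241, 0.304 and 0.392 in adult replicates 1, 2 and 3, against 0.362, 0.547 and 0.365 in baseline replicates 1, 2 and 3. Baseline replicate 2 held 70 genes that stood over 2 log2 units above each of the other 5 arrays, and baseline replicate 1 held 27. The other 4 arrays held between 0 and 7 such genes. The correlation of an array with its own group averaged 0.267 to 0.357 in the adult group and 0.111 to 0.136 in the baseline group. Where a gene is said below to rest on 1 array, its difference without that array is the difference of the means over the arrays that remain. Of the 120 genes named by rule, 78 had more than 1 probe. The others had 1 probe each, among them IGHE, VWF, SERPINE2, IFNAR1, CDC6, GDPD4 and KCNK18.

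The largest positive difference belonged to IGHE, the constant region of the immunoglobulin E heavy chain. IGHE stood at 2.17, 2.00 and 1.36 in the 3 adult arrays, against -1.85, -1.62 and -1.37 in the 3 baseline arrays. The groups were far apart and each was tight. The difference was 3.46 log2 units (SE 1.25, limma adjusted p = 0.330) and it was measured by 1 probe. The SE is drawn from all 9 groups and was wide because IGHE varied most under larvae. The SD there was 1.60 in Brahman, 2.30 in Bonsmara and 3.87 in Holstein-Friesian arrays. Brahman larva arrays stood at -5.32, -2.14 and -3.35, and Holstein-Friesian larva arrays at -4.86, -3.44 and 2.44, the last above every Brahman adult array. Over the stages the IGHE mean was -1.61 ± 0.24 at baseline, -3.60 ± 1.60 under larvae and 1.84 ± 0.43 under adults in Brahman nodes (SD, n = 3 each). The adult Brahman group had the highest mean of the 9 groups, above Bonsmara adult nodes at 0.75 ± 0.79 and Holstein-Friesian adult nodes at 0.04 ± 0.17. These values come from a tissue extract, so more IgE-making cells and more IGHE RNA per cell cannot be told apart, and the same holds for every gene below.

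Other genes of type 2 immunity, the arm that raises IgE, gave smaller values. The type 2, mast cell and eosinophil list had 26 measured members with IGHE, of which 5 were higher and 1 lower at an unadjusted p under 0.05. Over all genes 5.31% were higher and 6.41% lower. The list median was 0.08. Among the 25 members other than IGHE, 4 were higher and 1 lower, with a median of 0.07. IL1RL1, the receptor for the alarmin IL-33, stood at 0.85, 0.39 and 0.62 in adult arrays, against 0.36, 0.10 and 0.09 in baseline arrays, a difference of 0.44 (SE 0.14). KIT, the stem cell factor receptor that marks mast cells, differed by 0.34 (SE 0.13) with no overlap between the groups. CCL26, an eosinophil-attracting chemokine, differed by 1.19 (SE 0.43), yet it stood at 2.24 in adult replicate 3 and at 0.22 and -0.09 in the other adult arrays, and without that array it differed by 0.46. IL13RA1, a chain of the IL-13 receptor, differed by 0.61 (SE 0.21), and by 0.31 without adult replicate 3. IL13RA2, a decoy receptor for IL-13, had the 1 lower value, -1.68 (SE 0.72), which came from 4.92 in baseline replicate 2, while the other 5 arrays lay between -0.14 and 0.01. Without that array it differed by -0.02. IL4 and IL13, the defining type 2 cytokines, differed by -0.14 (SE 0.15) and 0.08 (SE 0.18). With IGHE counted, the number of higher members was 2 without adult replicate 3 and 3 without baseline replicate 3. In these settings 2.5% and 5.15% of all genes were higher. The immunoglobulin G constant region IgCgamma differed by -0.10 (SE 0.70) and JCHAIN, which joins secreted immunoglobulin polymers, by 0.21 (SE 0.66). Both SEs are wide beside these values, and neither gene was tested against IGHE. Of 17 plasma cell genes 1 was higher at an unadjusted p under 0.05, FNDC3B at 0.68 (SE 0.25). That count is near the 5.31% of all genes that were higher. Of 25 unfolded protein response genes 0 were higher and 0 lower by limma.

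**Figure D1:**
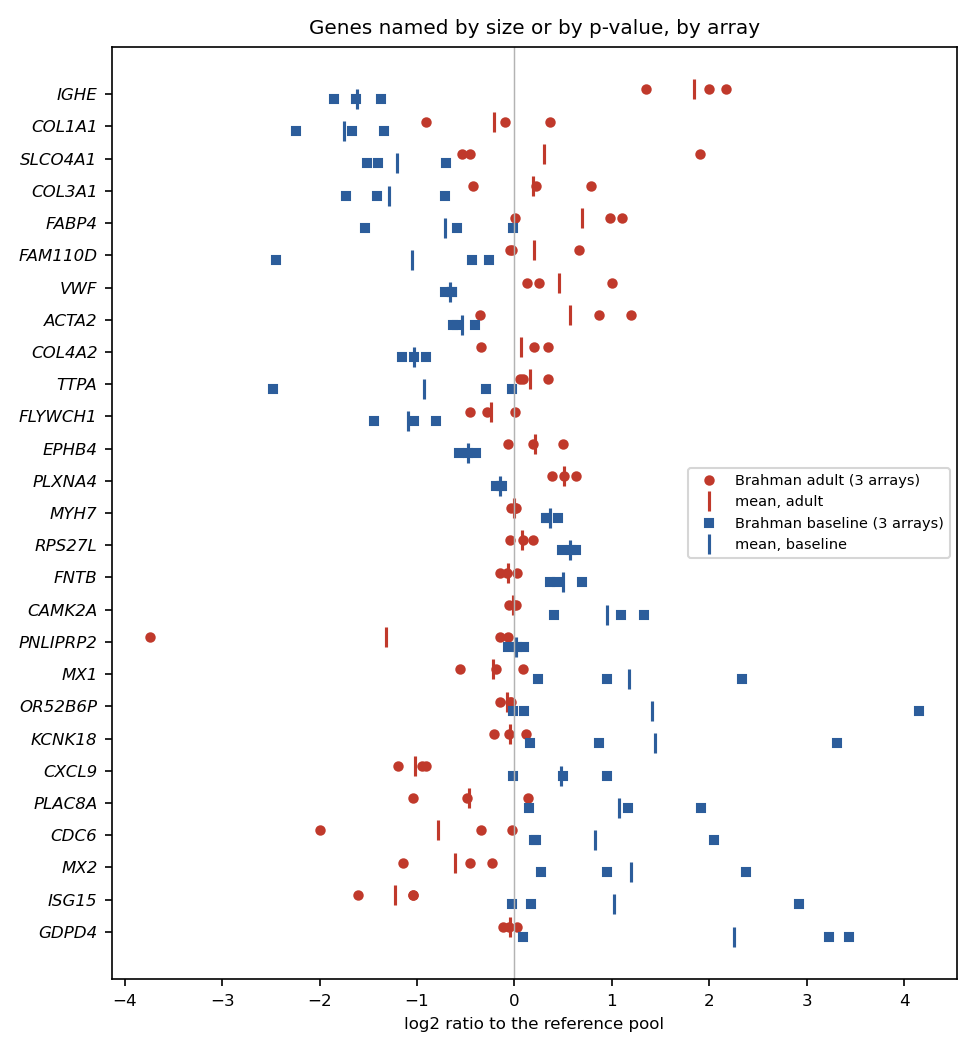
Log2 ratio to the pool (x axis) of the 27 genes named by size or by smallest p, with circles for the 3 adult arrays, squares for the 3 baseline arrays and bars for the group means. IGHE shows 2 tight groups apart, 2.17, 2.00 and 1.36 in adult and -1.85, -1.62 and -1.37 in baseline arrays. GDPD4 has 2 high baseline arrays, and ISG15 and OR52B6P have 1. Without that array ISG15 still differs by -1.30, and OR52B6P by -0.12.

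Blood vessel genes had higher values in adult nodes. VWF, von Willebrand factor, the clotting protein stored in endothelial cells, stood at 0.13, 0.25 and 1.00 in adult arrays, against -0.71, -0.64 and -0.65 in baseline arrays. The adult values did not touch the narrow baseline range. The difference was 1.13 (SE 0.23, limma adjusted p = 0.165). Of 26 measured blood endothelial genes, 12 were higher and 0 lower at an unadjusted p under 0.05, where 5.31% of all genes were higher. In 9 of the 26 the adult arrays lay wholly above baseline, where 6.77% of all genes did. The list median was 0.43, against -0.02 over all genes. PECAM1, the junctional adhesion molecule CD31, differed by 0.94 (SE 0.22), CDH5, vascular cadherin, by 0.85 (SE 0.29), and ACKR1, the atypical chemokine receptor of venules, by 0.84 (SE 0.23). PLVAP, which forms the diaphragms of fenestrated endothelium, differed by 0.99 (SE 0.40), but its groups overlapped. The size of these differences depended on adult replicate 3, the highest array for 17 of the 26 genes, with a list median of 0.54 against 0.15 in adult replicate 2 and -0.08 in adult replicate 1. Without it the count of higher members was 4 and the median difference was 0.26. Of 9 lymphatic endothelial genes, 1 was higher, the scavenger receptor STAB1 at 0.61 (SE 0.21), and LYVE1 and PROX1, which define lymphatic vessels, differed by 0.58 (SE 0.45) and 0.36 (SE 0.28). The lymphatic count of 1 was 4 without adult replicate 1, 2 without adult replicate 2, and 0 without adult replicate 3 or without baseline replicate 3.

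Basement membrane genes had the largest list median, 0.57 over 13 genes. COL4A2, a chain of type IV collagen, stood at -0.34, 0.20 and 0.34 in adult arrays, against -1.03, -0.91 and -1.15 in baseline arrays, with no overlap. Its difference was 1.10 (SE 0.22, limma adjusted p = 0.165), and its 4 probes ran from 0.73 to 1.53. The other members with the smallest p were the proteoglycan perlecan, HSPG2, at 0.97 (SE 0.23), the linker nidogen 1, NID1, at 0.81 (SE 0.22), and COL18A1, the precursor of endostatin, at 0.54 (SE 0.15). Of the 13, 10 were higher and 0 lower at an unadjusted p under 0.05, where 5.31% of all genes were higher. In 8 the adult arrays lay wholly above baseline, where 6.77% of all genes did. Adult replicate 3 was the highest array for 11 of the 13. The count of higher genes was 5 without baseline replicate 1 or without adult replicate 2, and 6 without adult replicate 3. The median difference stayed between 0.46 and 0.71 with any 1 array left out.

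Fibrillar collagens also had higher values. COL1A1, a chain of type I collagen, stood at -0.91, 0.36 and -0.10 in adult arrays, against -1.67, -1.34 and -2.24 in baseline arrays. Every adult array was above every baseline array. The difference was 1.54 (SE 0.47, limma adjusted p = 0.280). COL3A1, the type III chain of reticular fibres, differed by 1.48 (SE 0.44), COL1A2 by 1.09 (SE 0.43) and the type VI chains COL6A1 and COL6A2 by 0.62 (SE 0.17) and 0.54 (SE 0.14). Of 18 genes for fibrillar and type VI collagens and their binding proteins, 9 were higher and 0 lower, where 5.31% of all genes were higher. The median was 0.38, and the count of higher genes was 5 without adult replicate 3, where 2.5% of all genes were. LOX, the enzyme that cross-links collagen, went the other way with -0.85 (SE 0.44), since baseline replicate 1 stood at 2.32, and differed by -0.28 without that array. Among 24 elastic fibre, fibronectin and proteoglycan genes, 8 were higher and 1 lower. The count of higher genes was 5 without baseline replicate 3 and 2 without adult replicate 3, where 5.15% and 2.5% of all genes were higher. BGN, the proteoglycan biglycan, differed by 0.50 (SE 0.13), the matricellular protein POSTN by 0.83 (SE 0.24) and the calcification inhibitor MGP by 0.93 (SE 0.33). The 1 lower member was the microfibril protein MFAP5 at -0.51 (SE 0.19), which stood at 1.05 in baseline replicate 2 and differed by -0.18 without it.

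Differences of matrix turnover genes were more often positive (16) than negative (6), with a median of 0.21. Of 22 proteases and inhibitors 6 were higher and 1 lower, where 5.31% of all genes were higher and 6.41% lower. Without adult replicate 3 the higher count was 2, where 2.5% of all genes were higher. ADAM12, a membrane protease, differed by 0.90 (SE 0.28), MMP14, a membrane-anchored collagenase, by 0.59 (SE 0.19) and ADAMTS4, which cuts aggrecan, by 0.39 (SE 0.13). SERPINE2, an inhibitor of thrombin and urokinase, stood at -0.72, -0.05 and -0.23 in adult arrays, against 0.07, 0.24 and 0.55 in baseline arrays, a difference of -0.62 (SE 0.15). Of 19 genes of the TGF-beta pathway, which drives matrix synthesis, 4 were higher, among them the receptor TGFBR2 at 0.47 (SE 0.19) and the co-receptor ENG at 0.67 (SE 0.29), and 0 were lower. The 4 became 0 without baseline replicate 1 or without adult replicate 3, 2 without adult replicate 2 and 7 without adult replicate 1. With all arrays, 0 of the 19 lay wholly above or wholly below baseline.

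Contractile and stromal genes of the node followed the vessel and matrix genes. RGS5, a marker of pericytes, stood at 0.06, 1.18 and 0.77 in adult arrays, against -0.23, -0.49 and -0.37 in baseline arrays, a difference of 1.04 (SE 0.24, limma adjusted p = 0.190). The smooth muscle genes ACTA2, TAGLN, MYH11 and CNN1 differed by 1.11 (SE 0.39), 0.98 (SE 0.37), 0.78 (SE 0.19) and 0.61 (SE 0.19). MADCAM1, the addressin that lets lymphocytes leave the blood, differed by 0.65 (SE 0.24) with no overlap. The chemokines of the reticular network did not share this sign, with CCL19 at -0.12 (SE 0.21), CCL21 at -0.23 (SE 0.35) and CXCL13 at -0.30 (SE 0.44). Of 22 stromal genes 11 were higher and 0 lower at an unadjusted p under 0.05, where 5.31% of all genes were higher. The list median was 0.35. The count of higher genes was 6 without baseline replicate 1 or without adult replicate 3, and 7 without adult replicate 2.

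Guidance receptors, which steer growing axons and vessels, gave the smallest p among positive differences. PLXNA4, a semaphorin co-receptor of the plexin family, stood at 0.51, 0.39 and 0.63 in adult arrays, against -0.13, -0.19 and -0.14 in baseline arrays. These 3 adult values were higher than all 24 other arrays of the series. The difference was 0.66 (SE 0.12, limma adjusted p = 0.115) and it was measured by 1 probe. EPHB4, the ephrin receptor of venous endothelium, differed by 0.69 (SE 0.15, limma adjusted p = 0.166), the netrin receptor UNC5B by 0.61 (SE 0.21) and the semaphorin and VEGF co-receptor NRP1 by 0.73 (SE 0.31). Of 22 guidance genes 8 were higher and 0 lower, where 5.31% of all genes were higher and 6.41% lower, with a median of 0.20. The list was chosen with earlier results of these data known, and PLXNA4 and EPHB4 are counted among the 8. The count was 5 without baseline replicate 3 and 2 without adult replicate 3.

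**Figure D2:**
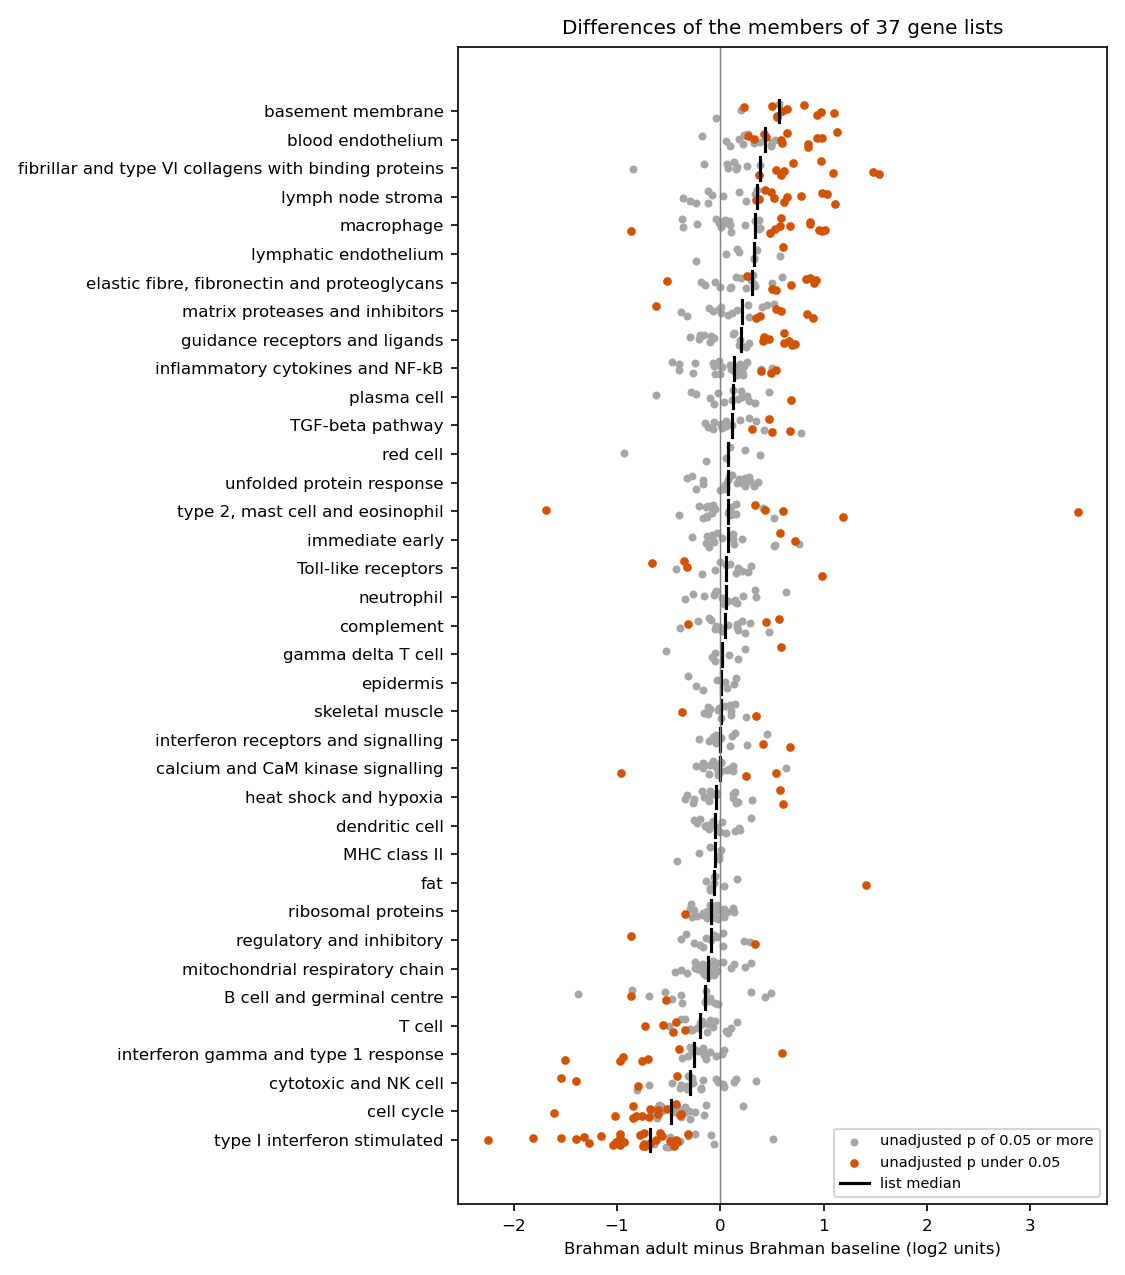
Difference between Brahman adult and baseline nodes (x axis, log2 units) for each measured member of the 37 gene lists (rows), with orange points for an unadjusted p under 0.05, grey points for the rest and black bars for list medians. The medians run from 0.57 for basement membrane genes to -0.68 for type I interferon stimulated genes, and no point passed the adjusted threshold.

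Macrophage genes tended to higher values, mostly in 1 array. CD14, the co-receptor for bacterial endotoxin, stood at -0.15, -0.20 and 0.71 in adult arrays, against -0.57, -0.95 and -1.07 in baseline arrays. All 3 adult arrays were above the baseline range, and the difference was 0.98 (SE 0.26, limma adjusted p = 0.219). LGMN, a lysosomal protease, differed by 0.87 (SE 0.24), the scavenger receptor CD163 by 0.95 (SE 0.37), the mannose receptor MRC1 by 0.87 (SE 0.38) and the lectin CD209 by 1.01 (SE 0.39). CD209 stood at -0.22, 0.47 and 1.86 in adult arrays, against -0.31, -0.47 and -0.14 in baseline arrays, so its groups overlapped. APOE, the apolipoprotein made by many tissue macrophages, had the opposite sign, -0.87 (SE 0.35), with no overlap. Of 29 macrophage genes 10 were higher and 1 lower, with a median of 0.34, where 5.31% of all genes were higher and 6.41% lower. Adult replicate 3 was the highest array for 21 of the 29, and without it 2 were higher and the median was 0.13. The count was 5 without baseline replicate 3 and 6 without baseline replicate 2.

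Other innate genes showed less. Of 29 inflammatory cytokine and NF-kB genes 3 were higher and 0 lower, the neutrophil chemokine CXCL2 at 0.40 (SE 0.12), the macrophage growth factor CSF1 at 0.49 (SE 0.21) and the adhesion molecule ICAM1 at 0.54 (SE 0.24). The 3 became 1 without adult replicate 3 or without baseline replicate 3. Of 16 neutrophil genes and 16 dendritic cell genes, limma gave 0 at an unadjusted p under 0.05, and of 20 complement genes 2 were higher, CFP at 0.57 (SE 0.24) and CD59 at 0.44 (SE 0.19), and 1 was lower, C6 at -0.31 (SE 0.14). The 2 higher complement genes became 0 without adult replicate 3 or without baseline replicate 3 and 1 without adult replicate 2. The background for these counts is the 5.31% of all genes that were higher and the 6.41% that were lower. Among 15 genes of Toll-like receptors and their partners, the median was 0.05, with 1 higher, CD14, described above, and 3 lower. The 3 lower members were TLR7, TLR9 and TLR3, each a receptor for nucleic acids, at -0.66 (SE 0.21), -0.35 (SE 0.13) and -0.32 (SE 0.15). TLR7 stood at 0.03, -0.03 and -0.43 in adult arrays, against 0.17, 0.99 and 0.38 in baseline arrays. The 3 lower members became 1 without adult replicate 3 or without baseline replicate 2. The oxygen-responsive genes VEGFA, an endothelial growth factor, and ADM, a vasodilator, differed by 0.58 (SE 0.25) and 0.61 (SE 0.27), and each was highest in adult replicate 3, at 1.22 and 1.21. At an unadjusted p under 0.05 they were the 2 higher members of 19 heat shock and hypoxia genes, of which 0 were lower. Without adult replicate 3 they differed by 0.20 and 0.32, and the list had 0 higher and 2 lower members. Without baseline replicate 3 it had 0 higher, and without baseline replicate 1 it had 1. With all arrays its median was -0.05, and 2 of the 19 genes lay wholly above baseline and 5 wholly below. Over all genes 6.77% lay wholly above and 6.75% wholly below.

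The type I interferon stimulated list had the lowest median of the 37 lists, -0.68 over 37 genes. ISG15, a ubiquitin-like antiviral protein, stood at -1.05, -1.60 and -1.04 in adult arrays, against 0.17, 2.92 and -0.03 in baseline arrays. The adult arrays were all below the baseline arrays, 1 of which lay far above the other 5. The difference was -2.25 (SE 0.52, limma adjusted p = 0.180), and -1.30 without baseline replicate 2. MX2 and MX1, antiviral GTPases, differed by -1.81 (SE 0.42) and -1.40 (SE 0.37), OAS1Z, a bovine synthetase of 2-5 oligoadenylates, by -1.31 (SE 0.29), IFI44 by -1.27 (SE 0.31) and EIF2AK2, the kinase PKR, by -0.73 (SE 0.17). OAS1Z stood at 0.19, -0.75 and -0.31 in adult arrays, against 0.84, 1.61 and 0.62 in baseline arrays, without overlap. Of the 37 genes 27 were lower and 0 higher at an unadjusted p under 0.05, where 6.41% of all genes were lower. In 22 the adult arrays lay wholly below baseline, where 6.75% of all genes did.

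The interferon values rested in large part on baseline replicate 2. It was the highest of the 6 arrays for 35 of the 37 genes. The list median per array was -0.10, -0.24 and 0.04 in adult replicates 1, 2 and 3, against 0.24, 1.20 and 0.26 in baseline replicates 1, 2 and 3. Without baseline replicate 2 the median difference was -0.34 with 17 of 37 genes lower, where 5.31% of all genes were lower. Without baseline replicate 3 it was -0.92 with 31 lower, where 9.71% of all genes were. Brahman baseline was also the group whose list median averaged highest of the 9, 0.57 ± 0.55 (SD, n = 3), while Bonsmara baseline nodes averaged 0.05 ± 0.18 and Holstein-Friesian baseline nodes -0.31 ± 0.12. The receptors and signal carriers of interferon had another pattern, with a median of 0.00 over 16 genes and 2 of them higher. IFNAR1, a chain of the type I interferon receptor, stood at 0.21, 0.14 and 0.13 in adult arrays, against -0.40, -0.49 and -0.67 in baseline arrays, with both groups tight and apart, and differed by 0.68 (SE 0.15, limma adjusted p = 0.166). The interferon gamma receptor chain IFNGR2 differed by 0.41 (SE 0.15).

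**Figure D3:**
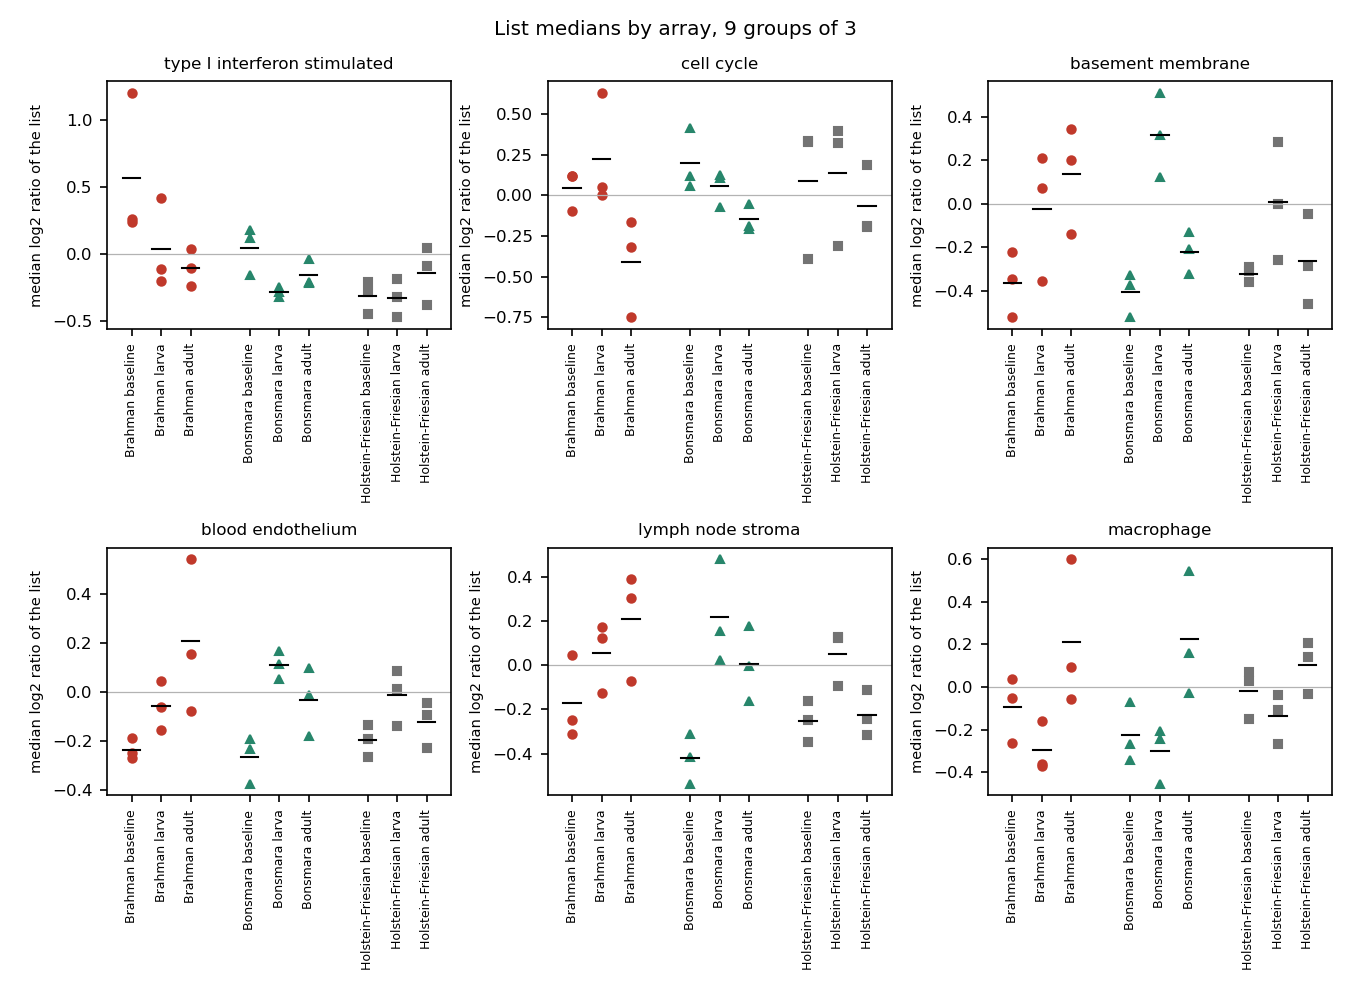
Median log2 ratio of the members of 6 gene lists in each array (y axis), with 3 arrays for each breed and stage in the order baseline, larva and adult, and black bars for group means. In the interferon panel 1 Brahman baseline array stands at 1.20 above all others, and in the cell cycle panel Brahman adult arrays stand at -0.16, -0.32 and -0.75.

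Chemokines and enzymes induced by interferon gamma had lower values as well. CXCL9, which attracts activated T cells, stood at -0.95, -1.20 and -0.91 in adult arrays, against 0.50, 0.95 and -0.01 in baseline arrays, with no overlap. The difference was -1.50 (SE 0.47, limma adjusted p = 0.286). CXCL10 and CXCL11, its relatives, differed by -0.97 (SE 0.43) and -0.76 (SE 0.36), and IDO1, which degrades tryptophan, by -0.94 (SE 0.38). Of 21 genes of the interferon gamma and type 1 response 6 were lower and 1 higher, IL18 at 0.60 (SE 0.25). Over all genes 6.41% were lower and 5.31% higher. IFNG itself differed by -0.32 (SE 0.19) and TBX21, the transcription factor of type 1 T cells, by -0.16 (SE 0.23). The lower count was 2 without baseline replicate 2, 3 without adult replicate 1 and 10 without baseline replicate 3. In these settings 5.31%, 6.6% and 9.71% of all genes were lower.

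T cell genes had slightly lower values. CD8A, a chain of the co-receptor of cytotoxic T cells, stood at -0.41, -0.44 and 0.13 in adult arrays, against 0.50, 0.58 and 0.38 in baseline arrays. The groups did not overlap, and the difference was -0.73 (SE 0.22, limma adjusted p = 0.266). CD8B differed by -0.55 (SE 0.24), CD2 by -0.45 (SE 0.17), the kinase LCK by -0.43 (SE 0.15) and the receptor subunit CD3E by -0.34 (SE 0.16), while CD4, the co-receptor of helper T cells, had 0.10. Of 23 T cell genes 5 were lower and 0 higher, with a median of -0.19, where 6.41% of all genes were lower. The count was 2 without baseline replicate 2 and 3 without baseline replicate 1 or without adult replicate 3. Of 25 cytotoxic and NK cell genes 4 were lower, against the same share, with a median of -0.29. The chemokine XCL2 differed by -0.41 (SE 0.14) and the granzyme GZMA by -0.80 (SE 0.35), while KLRJ1, a bovine lectin-like NK receptor, had -1.40 (SE 0.59) from a value of 4.04 in baseline replicate 2, and -0.04 without that array. The cytotoxic count was 10 without baseline replicate 3 and 2 without baseline replicate 2, where 9.71% and 5.31% of all genes were lower. Among 8 gamma delta T cell genes 1 was higher, the transcription factor ZBTB16 at 0.58 (SE 0.18), where 5.31% of all genes were higher.

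Cell cycle genes had lower values in adult nodes, most of all in adult replicate 3. CCNB2, a mitotic cyclin, stood at -0.27, -0.75 and -1.10 in adult arrays, against 0.19, -0.03 and 0.79 in baseline arrays. No adult array reached the baseline range, and the difference was -1.02 (SE 0.33, limma adjusted p = 0.297). MCM5, part of the replicative helicase, differed by -0.60 (SE 0.20) and the mitotic kinase AURKB by -0.85 (SE 0.31). CDC6, which loads that helicase, had a difference of -1.61 (SE 0.42), set by -2.00 in adult replicate 2 and 2.05 in baseline replicate 2. It was -1.0 without either of these arrays. Of 34 genes, 14 were lower and 0 higher at an unadjusted p under 0.05, where 6.41% of all genes were lower. In 20 the adult arrays lay wholly below baseline, where 6.75% of all genes did, and the list median was -0.48. Adult replicate 3 was the lowest array for 32 of the 34. Without it 2 genes were lower, where 3.86% of all genes were, and the median was -0.31. The count of lower genes was 5 without baseline replicate 1, 9 without baseline replicate 3 and 22 without adult replicate 1. In these settings 7.17%, 9.71% and 6.6% of all genes were lower. B cell genes had a median of -0.14 over 19 members, 2 of them lower, the receptor subunit CD79A at -0.53 (SE 0.23) and the germinal centre gene GCSAM at -0.86 (SE 0.41), which stood at -2.14 in adult replicate 3 and between -0.12 and 0.48 elsewhere. GCSAM differed by -0.14 without that array. The lower B cell count was 5 without adult replicate 1, 3 without adult replicate 2 and 0 without adult replicate 3, against 0, 5 and 1 without baseline replicates 1, 2 and 3.

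Several of the smallest p-values belonged to genes that were raised in Brahman baseline nodes and flat in the rest of the series. CAMK2A, the alpha subunit of a calcium and calmodulin-dependent kinase best known from neurons, stood at 0.01, -0.00 and -0.05 in adult arrays, against 1.33, 1.10 and 0.41 in baseline arrays. These 3 baseline values were above all 24 other arrays, and arrays outside the adult and baseline Brahman groups lay between -0.24 and 0.20. The difference was -0.96 (SE 0.15), with the smallest adjusted p of the comparison (limma adjusted p = 0.0734). Its 2 probes gave -1.81 and -0.11. FNTB, the beta subunit of farnesyltransferase, stood at 0.03, -0.15 and -0.07 in adult arrays, against 0.37, 0.70 and 0.44 in baseline arrays, again above all other arrays, with a difference of -0.56 (SE 0.10, limma adjusted p = 0.115). Its 4 probes ran from -0.84 to -0.08.

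GDPD4, a member of the glycerophosphodiesterase family, stood at 0.02, -0.06 and -0.12 in adult arrays, against 3.44, 3.23 and 0.09 in baseline arrays. The third baseline array did not share the high level of the other 2. The difference was -2.30 (SE 0.48, limma adjusted p = 0.165), and it became -3.38 (limma adjusted p = 3.94e-11) without baseline replicate 3, the array that lacked the high level. Without baseline replicates 1 and 2 in turn it was -1.71 and -1.81, and with quantile normalization -1.15 (limma adjusted p = 0.322). Over the 14 alternative settings its adjusted p reached 0.772, with the 6 arrays fitted alone. KCNK18, a potassium channel, stood between -0.21 and 0.12 in adult arrays, against 0.87, 3.31 and 0.16 in baseline arrays. It differed by -1.49 (SE 0.43), and by -0.56 without baseline replicate 2. RPS27L, a relative of a ribosomal protein, and MYH7, a myosin heavy chain of slow muscle and heart, differed by -0.49 (SE 0.10) and -0.37 (SE 0.08), but their probes disagreed in sign, from -1.01 to 0.09 and from -1.45 to 0.25. PNLIPRP2, a lipase, was carried by -3.74 in adult replicate 3, with a difference of -1.34 that was -0.13 without that array. OR52B6P was carried by 4.15 in baseline replicate 2, with a difference of -1.49 that was -0.12 without it. SLCO4A1, among the largest rises, stood at -0.45, -0.54 and 1.90 in adult arrays, and differed by 0.71 without adult replicate 3. FAM110D stood at -2.45 in baseline replicate 1 and TTPA at -2.47 in baseline replicate 3. Without these arrays they differed by 0.54 and 0.32. FLYWCH1 stood at -0.28, -0.45 and 0.01 in adult arrays, against -0.80, -1.45 and -1.03 in baseline arrays. PLAC8A stood at -0.49, -1.04 and 0.14, against 1.17, 1.91 and 0.15. Other calcium and calmodulin kinase genes had no shared sign, with CAMK2B at 0.54 (SE 0.22) and a list median of -0.01 over 21 genes, 2 of them higher and 1 lower.

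**Figure D4:**
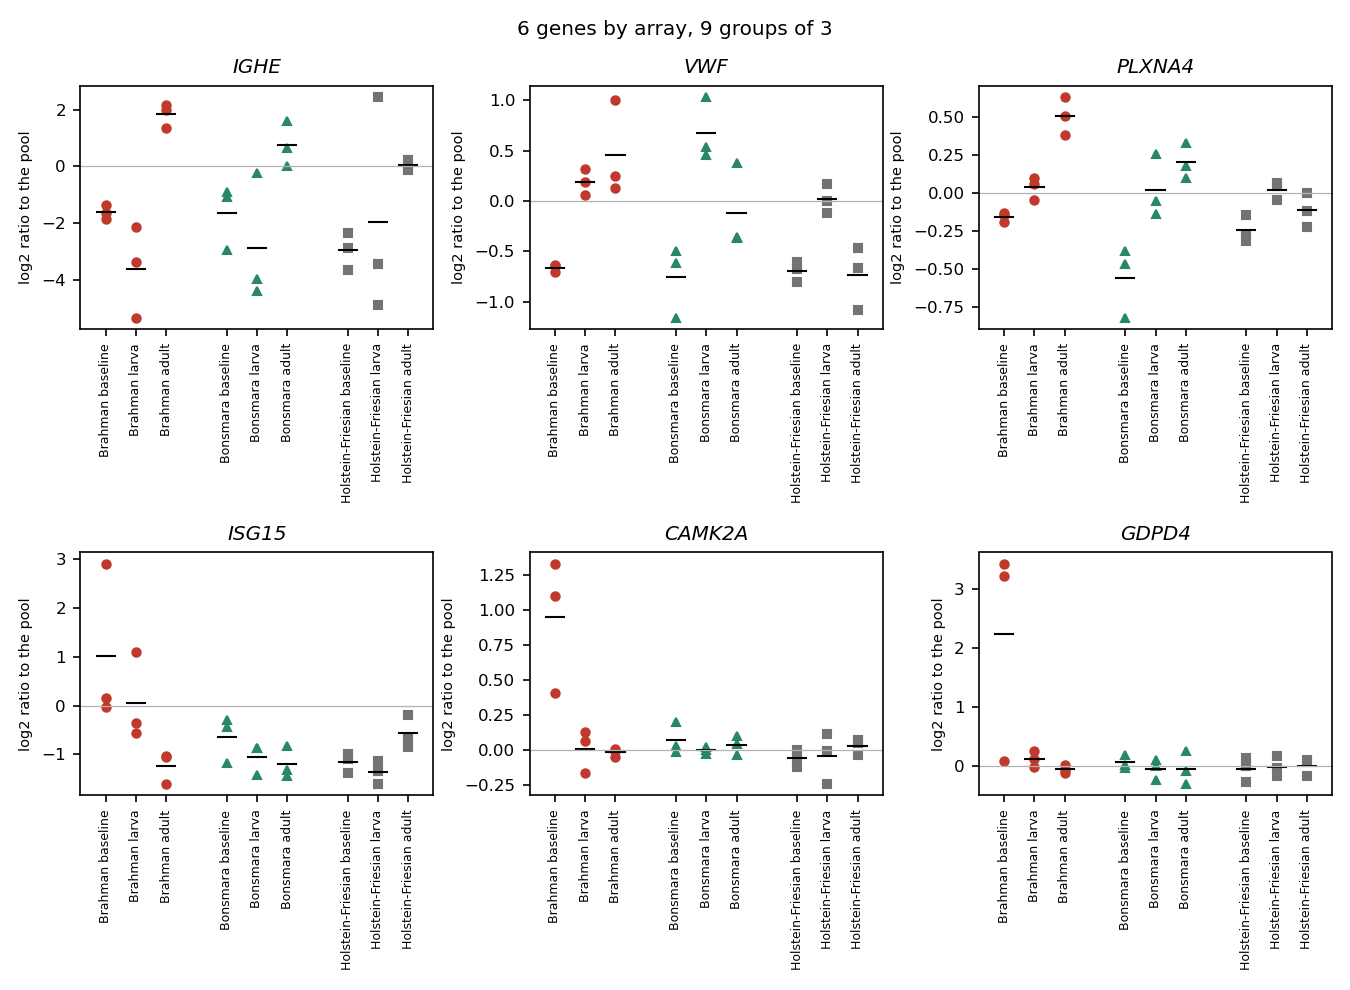
Log2 ratio to the pool of 6 genes in each of the 27 arrays (y axis), by breed and by stage in the order baseline, larva and adult, with black bars for group means. CAMK2A and GDPD4 lie near 0 in every group but Brahman baseline, while IGHE has its highest mean in the adult group of each breed, at 1.84, 0.75 and 0.04 in Brahman, Bonsmara and Holstein-Friesian nodes.

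The place of the Brahman baseline group among the 9 groups was counted for all genes at an unadjusted p under 0.05. Of the 929 genes lower in adult nodes, Brahman adult had the lowest of the 9 group means in 413 and Brahman baseline the highest in 657. Over all 14495 genes these numbers were 2085 and 2382. Of the 770 genes higher in adult nodes, Brahman adult had the highest mean in 479 and Brahman baseline the lowest in 320, against 1676 and 1624 over all genes. Genes chosen for a difference between these groups lean towards such positions, so the counts are a description only.

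Markers of tissue that a biopsy could carry were checked with the same values. Because the pool is itself lymph node, a ratio near 0 says that sample and pool were alike and not that a marker was absent. Array medians of the skeletal muscle list lay between -0.03 and 0.02 in adult and between -0.10 and 0.17 in baseline arrays, and those of the fat, epidermis and red cell lists between -0.15 and 0.04 in adult and between -0.15 and 0.08 in baseline arrays. Of 15 muscle genes 1 was higher, desmin DES at 0.35 (SE 0.14), which smooth muscle also holds, and 1 lower, MYH7. FABP4, a fatty acid carrier of fat and capillary endothelium, stood at 0.00, 0.98 and 1.11 in adult arrays, against -0.59, -0.01 and -1.54 in baseline arrays. The fat genes ADIPOQ and PLIN1 differed by -0.10 (SE 0.17) and -0.06 (SE 0.15). The haemoglobin gene HBA stood at 2.05 in baseline replicate 3 and between -0.89 and -0.28 in the other 5 arrays. Ribosomal protein genes, a check on general level, had a median of -0.09 over 30 genes, and mitochondrial respiratory chain genes one of -0.12 over 30. With baseline replicate 3 left out, 9 of these 30 mitochondrial genes were lower, where 9.71% of all genes were. With all arrays 0 of the 30 were lower, where 6.41% of all genes were.

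The same stage difference in the other breeds shares no array with the Brahman one, other than the common pool on every array. Across the 14495 genes, Brahman and Bonsmara differences correlated with r = 0.276 and Brahman and Holstein-Friesian differences with r = 0.204, given as a description across genes that are not independent. For the difference between the Brahman and the Bonsmara response, limma passed 0 of 28927 features (0%), with 2078 (7.18%) at an unadjusted p under 0.05, and the smallest adjusted p was 0.559. For Brahman against Holstein-Friesian it passed 0 (0%), with 1570 (5.43%) at an unadjusted p under 0.05, and the smallest adjusted p was 0.864. With 1 Brahman array left out these counts ran up to 33 and 34, both without baseline replicate 3, and were 14 and 8 without baseline replicate 1, 2 and 5 without baseline replicate 2, and 1 and 1 without adult replicate 3. No gene below is therefore shown to respond differently in Brahman nodes.

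Side by side, IGHE differed between adult and baseline nodes by 3.46 in Brahman, 2.39 in Bonsmara and 2.99 in Holstein-Friesian (SE 1.25 each), the same sign in all 3 breeds. PLXNA4 differed by 0.66, 0.76 and 0.13, and COL1A1 by 1.54, 0.86 and 0.70. VWF differed by 1.13 in Brahman, 0.64 in Bonsmara and -0.04 in Holstein-Friesian, and the Brahman minus Holstein-Friesian difference of 1.17 (SE 0.32, limma adjusted p = 0.864) did not pass. CXCL9 differed by -1.50 in Brahman and -2.07 in Bonsmara, and by -0.05 in Holstein-Friesian. CAMK2A and GDPD4 differed by -0.96 and -2.30 in Brahman, by -0.04 and -0.11 in Bonsmara and by 0.09 and 0.05 in Holstein-Friesian. The smallest p for a difference of responses from Bonsmara belonged to CIAO1, a factor of iron-sulfur protein assembly, at 0.24 in Brahman and -0.42 in Bonsmara, and the next to FCRL4, an Fc receptor-like protein of B cells, at -0.57 and 0.50. MDGA1 and AK5, which follow, stood near 0 in Brahman, at -0.09 and 0.03, and at 0.85 and -0.75 in Bonsmara. Against Holstein-Friesian the genes were CAMK2A, PDIA3, RPS27L and PARP14. PDIA3, a protein-folding enzyme of the endoplasmic reticulum, differed by -0.16 in Brahman and 0.94 in Holstein-Friesian, and PARP14, an interferon-induced enzyme, by -0.57 and 0.32.

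**Figure D5:**
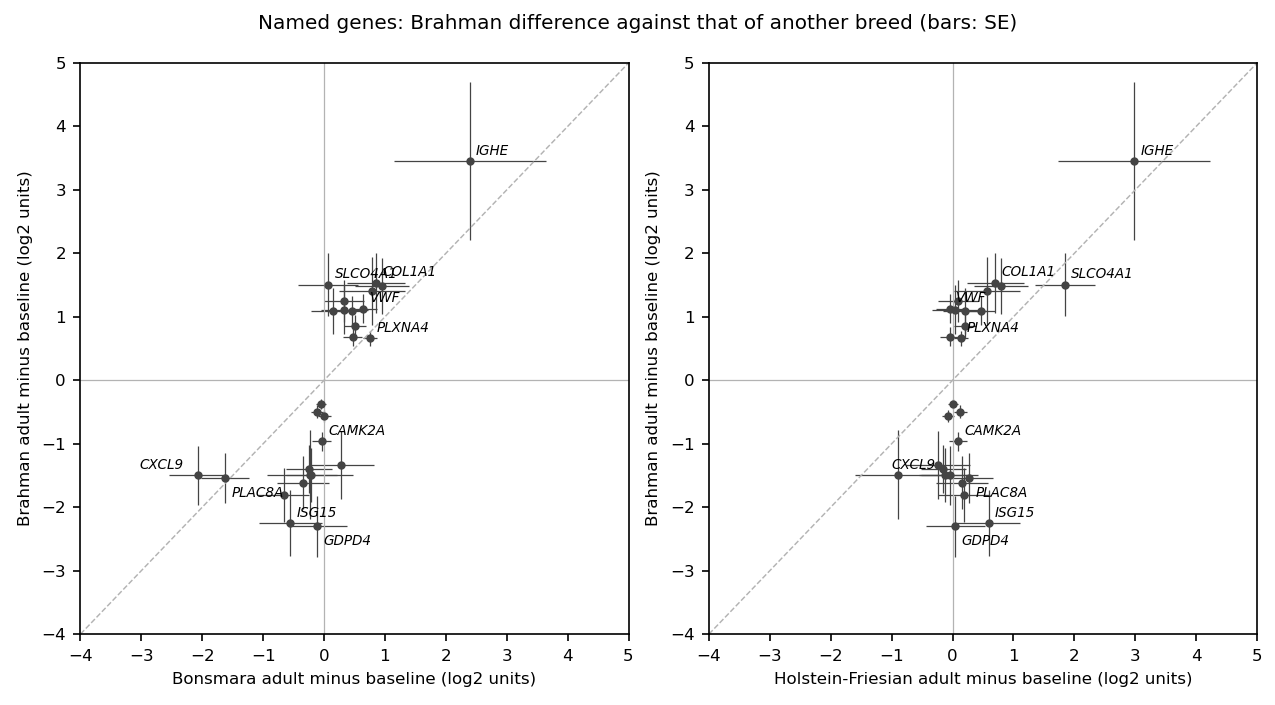
Difference between adult and baseline nodes in Brahman (y axis) against that in Bonsmara (left) or Holstein-Friesian (right), in log2 units, for the 27 genes named by size or smallest p, with bars for 1 SE and a dashed line of equality. IGHE lies high in all breeds at 3.46, 2.39 and 2.99, and CAMK2A and GDPD4 lie near 0 on both x axes.

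By gene list, the interferon stimulated median was -0.68 in Brahman, with 27 of 37 genes lower, -0.23 in Bonsmara, with 3 lower where 5.65% of all genes were, and 0.14 in Holstein-Friesian, with 1 lower where 2.17% were. The blood endothelial median was 0.43, 0.17 and 0.08 in these breeds, with 12, 4 and 1 of 26 genes higher, where 5.31%, 4.46% and 3.19% of all genes were. The basement membrane median was 0.57, 0.33 and 0.07, with 10, 3 and 2 of 13 higher. The stromal median was 0.35, 0.32 and 0.05, with 11, 6 and 1 of 22 higher. Macrophage genes had medians of 0.34, 0.35 and 0.03, with 10, 7 and 5 of 29 higher, and cell cycle genes medians of -0.48, -0.35 and -0.14, with 14, 5 and 0 of 34 lower. Other lists had more members past the unadjusted p in another breed. Interferon gamma genes had 6, 11 and 0 of 21 lower in Brahman, Bonsmara and Holstein-Friesian nodes, and cytotoxic and NK cell genes 4, 9 and 0 of 25. Unfolded protein response genes had 0, 2 and 12 of 25 higher in these breeds, inflammatory cytokine and NF-kB genes 3, 3 and 13 of 29, and heat shock and hypoxia genes 2, 2 and 7 of 19. The differences between breeds in these lists were not tested.

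Larva and adult Brahman nodes were both set against the same 3 baseline arrays, so a trait of those arrays enters both. The interferon stimulated median was -0.58 under larvae, with 20 of 37 genes lower where 5.34% of all genes were, and -0.68 under adults, with 27 lower. CAMK2A differed from baseline by -0.93 under larvae and -0.96 under adults. COL1A1 differed by 1.71 and 1.54, and COL4A2 by 1.11 and 1.10. The 2 stages parted in other lists. Cytotoxic and NK cell genes had a median of -0.63 with 18 of 25 lower under larvae, and of -0.29 with 4 lower under adults. Macrophage genes had -0.16 with 0 of 29 higher under larvae, where 3.28% of all genes were higher, and 0.34 with 10 higher under adults. Cell cycle genes had 0.17 with 0 of 34 lower under larvae, and -0.48 with 14 lower under adults. IGHE differed from baseline by -1.99 under larvae and by 3.46 under adults. The difference between the 2 stages in these lists was not tested.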

How the data were processed

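The deposited values were normalized by the authors and were taken as log2 ratios of sample to pool, which is likely but not stated. The table has 45220 probes, 27 arrays and 0 empty cells. The tool named by the submitters' processing notes is limma. Its version, and the methods of background correction and normalization, were not given in the sources used here. Scanner intensities were not used, so signal over background is unknown, and the number of arrays limits the precision. Gene symbols came from GEO's annotation of the array, updated through RefSeq (ARS-UCD2.0, names only), with 1 symbol for 30788 probes, none for 14432 and several for 0. Gene positions were left out because the array's genome build is unknown.

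Linear models were fitted to these log2 values with limma 3.58.1 in R 4.3.3, with 9 group means, 18 residual degrees of freedom and two-sided tests adjusted by the Benjamini-Hochberg method over 28927 features at 0.05. The code was checked on simulated data. P-values measure the spread between these arrays. The comparison, the 37 gene lists and the rules were chosen with earlier results of these data known.

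As 0 features passed, named genes were, as values only, the 10 largest differences in each direction among genes at an unadjusted p under 0.05 with groups apart, and the 5 smallest p-values in each direction. Up to 4 members of each list and the 4 smallest p-values of each difference of responses were added. Provisional symbols were left out. Further list members, BOLA-DQA2 among them, were named after their values were seen. Alternatives changed the arrays fitted, array weights, scaling, probe summary, filter and replicate block. There were 0 unused columns of array values.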

Additional observations from a re-analysis of the deposited data

Results flagged for a closer look

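Only the 37 list medians and the 120 named genes were searched here, not all 14495 genes. In 7 cases, each a named gene, all 3 adult Brahman arrays stood on one side of all 3 Brahman baseline arrays while the arrays of another breed stood the opposite way. The difference of responses was tested for each in limma, and none passed. CIAO1, FCRL4 and PARP14 had been named for a small p of that difference, so their place here is partly fixed by that choice. Against Bonsmara, PNLIPRP2 differed by -1.34 in Brahman and 0.28 in Bonsmara (adjusted p of the difference 0.685), CIAO1 by 0.24 and -0.42 (0.559), FCRL4 by -0.57 and 0.50 (0.559) and TLR7 by -0.66 and 0.30 (0.630). The PNLIPRP2 value rests on -3.74 in adult replicate 3. Against Holstein-Friesian, ISG15 differed by -2.25 in Brahman and 0.59 in Holstein-Friesian, PARP14 by -0.57 and 0.32 and OAS1Z by -1.31 and 0.36, each with an adjusted p of 0.864. ISG15 and OAS1Z were highest in baseline replicate 2, at 2.92 and 1.61.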

How the results depend on the processing

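The adult against baseline count of features past the threshold, 0, stayed 0 with the 6 arrays fitted alone, arrays scaled to 1 interquartile range, quantile normalization, or the less variable features left out. It was 10 with array weights (1 higher, 9 lower), 3 with unnamed probes left out, where CAMK2A, FNTB and PLXNA4 passed with fewer features tested, 1 with 1 probe a gene, and 1 to 128 with 1 array left out. The count at an unadjusted p under 0.05, 3360, was 1548 (849 higher, 699 lower) with the 6 arrays alone, 1778 without unnamed probes, 2160 without the less variable features, and 1938 (without adult replicate 3) to 4301 with 1 array left out. The genes with groups apart, 1959, were 937 without the less variable features and 2849 to 4373 with 1 array left out, as smaller groups overlap less often. The Brahman minus Bonsmara count was 1 with array weights and 0 to 33 with 1 array left out, and the Brahman minus Holstein-Friesian count 0 to 34. Of 120 named genes, 20 passed in at least 1 of 14 settings, and 2 turned sign, CD177 without baseline replicate 2 (-0.56 to 0.018 with 1 array left out) and AK5 without adult replicate 2 (-0.014 to 0.069), where the cause was not tested. Of 37 list medians, 0 to 7 moved by over 1 SD in a setting. Same-numbered adult and baseline arrays deviated together with correlations of 0.13, 0.05 and 0.003. No such correlations were taken for arrays of different numbers, so these values cannot settle whether the numbers pair the samples. The numbers are not taken to pair them, although BOLA-DQA2 (below) followed the replicate number across the Brahman stages and bears on that choice. With a replicate block the count was 0, and that at an unadjusted p under 0.05 was 3341.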

Other observations

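The bovine class II gene BOLA-DQA2, read by 2 probes and picked after its values were seen, split the Brahman arrays by replicate number and not by stage. Replicate 1 stood at -4.23 at baseline, -4.14 under larvae and -3.90 under adults, while replicates 2 and 3 lay between 0.15 and 0.76 at every stage. In the same order of stages, Holstein-Friesian replicate 3 stood at 1.21, -3.83 and 0.88, while replicates 1 and 2 of that breed lay between 0.38 and 0.73. Bonsmara replicate 1 stood at -1.52, -4.15 and -3.84, replicate 2 at -1.77, -2.07 and -0.21, and replicate 3 at -3.38, -3.04 and -1.36. All Bonsmara arrays were thus negative, and replicate 1 was the highest of them at baseline. Of the 9 ways to join 1 adult with 1 baseline array, adult replicate 1 with baseline replicate 1 set apart BOLA-DQA2, and adult replicate 3 with baseline replicate 1 set apart MAB21L1. These were the only genes in which such a pair stood over 2 log2 units from the other 4 arrays.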
